A study of Mus musculus with 3 samples.

Results

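Pairs of protein-coding genes that lie head to head, on opposite strands and transcribed away from each other, were examined for Ser5-phosphorylated Pol_II in mouse macrophages. A pair was taken when both genes were coding in GENCODE M1 on mm9, their starts (TSS, the 5′ end of the gene record) were at most 1000 bp apart, their bodies did not overlap and they lay on chromosomes 1 to 19 or X. The rule found 808 pairs, made of 1599 of the 22350 coding genes on these chromosomes (7.15%), and it uses no measured value. The distance between the starts ranged from 1 to 987 bp, with a median of 141 bp and quartiles of 73 and 271 bp. Each pair region runs from 1 kb inside one gene to 1 kb inside the other. Its sides are the first 1000 bp from each start into the gene, and the bases between the starts belong to neither annotated gene. For a gene shorter than 1000 bp the side runs past the gene's end. The side of the minus-strand gene is named first. Of the 808 pairs, 34 shared a gene with another pair and 42 held a gene shorter than 1000 bp. A further 419 divergent pairs with starts within 1000 bp overlap at their 5′ ends and so fall outside the rule.

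The cells were macrophages differentiated for 7 days from bone marrow of female Fvb mice (Fvb/Hsd in the methods of the study), in 3 libraries: Ser5 ChIP-Seq of untreated cells, Ser5 ChIP-Seq of cells given 10 ng/ml LPS (lipopolysaccharide, a Gram-negative bacterial component sensed by TLR4) for 2 h, and input DNA, sequenced without immunoprecipitation, of untreated cells. ChIP-Seq sequences the DNA that an antibody, here against Pol_II phosphorylated on Ser5, pulls down from cross-linked chromatin. There was 1 library per condition. The differences below therefore have no replicate check, and no test was run. All intervals are 95% intervals that cover counting error only.

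Ser5 of the carboxy-terminal domain of Pol_II is phosphorylated as the polymerase starts transcription, and the mark is densest near gene starts. Head-to-head genes share one nucleosome-depleted stretch from which polymerases leave in both directions, and such promoters are typically rich in CpG, lack a TATA box and drive housekeeping genes, DNA repair genes and mitochondrial genes. Histone genes of the replication-dependent clusters are a second well-known group of head-to-head genes. LPS in macrophages is known for inducing cytokine, chemokine and interferon-response genes.

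The sequence between the starts is shown for 8 pairs on which the results below turn, those with the highest and lowest ratios of LPS to untreated Ser5, a pair with unequal sides, a histone pair and a DNA repair pair. Sequences were read from the reference genome. Capitals mark matches, on either strand, to the 8 motifs searched, of which none contains another. Searched for NF-Y was CCAAT, and for the TATA box TATAAA. The GC box bound by SP factors was searched as GGGCGG. For ETS factors the letters were CCGGAAG. NRF1 was searched as GCGCATGCG and YY1 as AAGATGGCG. The interferon-stimulated response element, ISRE, was taken as GAAA occurring again after any 2 bases. For kappa B the search was for GGGA followed, after any 2 bases, by TTCC.
2010002M12Rik / Ifit1, chr19:34715234-34715360 (mm9, plus strand): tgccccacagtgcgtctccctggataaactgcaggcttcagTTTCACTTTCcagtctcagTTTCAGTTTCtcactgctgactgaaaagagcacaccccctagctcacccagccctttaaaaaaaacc
H2-T22 / Gm6034, chr17:36179693-36179905 (mm9, plus strand): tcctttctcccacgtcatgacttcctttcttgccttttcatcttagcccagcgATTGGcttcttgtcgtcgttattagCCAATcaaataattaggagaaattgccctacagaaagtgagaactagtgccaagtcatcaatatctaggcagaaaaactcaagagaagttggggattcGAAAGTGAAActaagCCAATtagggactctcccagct
5033414D02Rik / Cd274, chr19:29441881-29441944 (mm9, plus strand): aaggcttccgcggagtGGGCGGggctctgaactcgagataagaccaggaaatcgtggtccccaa
Lrrc63 / Lcp1, chr14:75530691-75530907 (mm9, plus strand): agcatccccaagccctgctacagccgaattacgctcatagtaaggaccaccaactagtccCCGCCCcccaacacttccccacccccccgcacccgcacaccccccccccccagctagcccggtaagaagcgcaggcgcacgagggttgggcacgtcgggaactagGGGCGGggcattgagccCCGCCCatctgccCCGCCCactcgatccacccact
Sqstm1 / Mgat4b, chr11:50024330-50024391 (mm9, plus strand): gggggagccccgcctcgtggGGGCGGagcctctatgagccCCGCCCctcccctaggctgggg
Sgsh / Slc26a11, chr11:119216851-119216870 (mm9, plus strand): gtgcacggcaggccCCGCCC
Hist2h2ac / Hist2h2be, chr3:96024804-96025043 (mm9, plus strand): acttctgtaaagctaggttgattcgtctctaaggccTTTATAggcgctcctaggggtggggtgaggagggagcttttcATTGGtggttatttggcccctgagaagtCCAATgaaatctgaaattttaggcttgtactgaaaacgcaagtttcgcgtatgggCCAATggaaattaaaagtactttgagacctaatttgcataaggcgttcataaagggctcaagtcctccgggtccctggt
Osgep / Apex1, chr14:51544569-51544642 (mm9, plus strand): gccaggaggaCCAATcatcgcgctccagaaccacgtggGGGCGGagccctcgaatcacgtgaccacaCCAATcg

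The 127 bases between 2010002M12Rik and Ifit1 hold 2 ISRE matches, both on the minus strand, and a single CpG. In the H2-T22 / Gm6034 interval there are 1 ISRE match and 3 NF-Y matches. The Cd274, Lcp1, Sqstm1 and Sgsh intervals hold SP matches and none of the other 7 motifs. Between Hist2h2ac and Hist2h2be lie 3 NF-Y matches and 1 TATA match, and between Osgep and Apex1 lie 2 NF-Y matches and 1 SP match. A match describes these letters only.

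Over the libraries, 7616771 untreated Ser5 tags, 6249819 Ser5 tags after LPS and 7533308 input tags lay on the chromosomes used. Tags were 45, 30 and 36 bases long in that order, and the supplementary methods of the study give the lengths of the Ser5 libraries the other way round. Over the whole gene, 8 LPS-response genes were between 5.55 and 396 times higher in the library labelled LPS, and 8 macrophage markers were between 2.67 and 116 times the input in untreated Ser5. Of 16 markers of T cells, B cells, neutrophils, fibroblasts, red cells and epithelium, 14 did not exceed the input, Cd79a and Ngp had 1.68 and 2.57 times the input density from 34 and 13 tags, and Hba-a1 had 0 tags in every library. Densities are given as TPM, here tags per 1000000 tags of the library on these chromosomes, per kb.

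Nearly all head-to-head promoters carried Ser5-phosphorylated Pol_II. A peak of the deposited lists overlapped 744 of the 808 pair regions in untreated cells (92.1%, Wilson interval 90.01 to 93.8) and 732 after LPS (90.6%, 88.4 to 92.4). Across all coding genes the shares with a peak within 1000 bp of the start were 48% and 45.9%. At starts with a CpG observed over expected of at least 0.6, the share in untreated cells was 95.5% (94.3 to 96.5) for the genes of the pairs and 77.3% (76.4 to 78.1) for other genes. For a gene of a pair this window always holds the partner's start too, as a pair region does. A peak at either start then counts, so these shares are not of like windows. The side of a head-to-head gene had a median of 10.6 TPM per kb in untreated Ser5 (quartiles 5.25 and 16.5), 8.48 after LPS and 1.06 in the input, whereas the same window of the other coding genes had medians of 0.525, 0.480 and 0.531. Among starts with the same CpG content limit the untreated medians were 11.4 and 10.4 TPM per kb. The densities of the pairs and of other CpG-rich genes thus lay close together.

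Summed over the pair regions, Ser5 was 12.03 times the input in untreated cells (11.8 to 12.2) and 10.6 times after LPS (10.45 to 10.8). The bases between the starts were enriched more, 19.2-fold (18.3 to 20.2) and 17.7-fold (16.8 to 18.6). These ratios depend on the scaling, and on tags outside the peaks they were 23.0 and 21.9 for the regions and 36.7 and 36.4 between the starts. Peaks were present in both conditions at 730 pairs and in neither at 62. A missing peak does not show missing Ser5 where the sequence is not unique in the genome. At the sides of Hist1h2ap / Hist1h2br and Hist1h2bq / Hist1h2ao, none of the sequence is unique. No tag was found there in any library, input included, so their Ser5 could not be measured. The 62 pairs without a peak had at most 16 untreated and 31 LPS tags each, with a median of 2 in both. They include genes of other tissues, such as Col4a4 / Col4a3 (collagen IV of basement membranes), Kirrel2 / Nphs1 (the slit diaphragm of the kidney), Hspb2 / Cryab (small heat shock proteins of muscle and lens) and Smc1b / Ribc2 (Smc1b is the meiotic cohesin subunit). A peak only after LPS was found at 2 pairs, Nrg4 / AI118078 (16 untreated and 50 LPS tags in the region) and Sgce / Peg10 (8 and 12 tags, with 9 in the input), and a peak only before LPS at 14 pairs. These examples were chosen after their values were seen. Over all coding starts a peak was also more frequent in untreated cells than after LPS, 48% against 45.9%. The untreated library held more tags, 7616771 against 6249819, and the part of this in the peak counts was not tested.

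The layout of the Ser5 signal differed with the distance between the starts. In the 298 pairs with starts 1 to 100 bp apart, the untreated density between the starts was 45.5 TPM per kb against 12.6 on the sides, a ratio of 3.61 (3.51 to 3.71). At over 100 and up to 300 bp (339 pairs) it was 30.8 against 12.8, a ratio of 2.41 (2.36 to 2.45), and above 300 bp (171 pairs) 17.6 against 10.8, a ratio of 1.63 (1.59 to 1.66). The densities on the sides changed little over the classes while the density between the starts was lower where they lay farther apart. After LPS the same ratios were 3.70, 2.63 and 1.66.

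**Figure D1:**
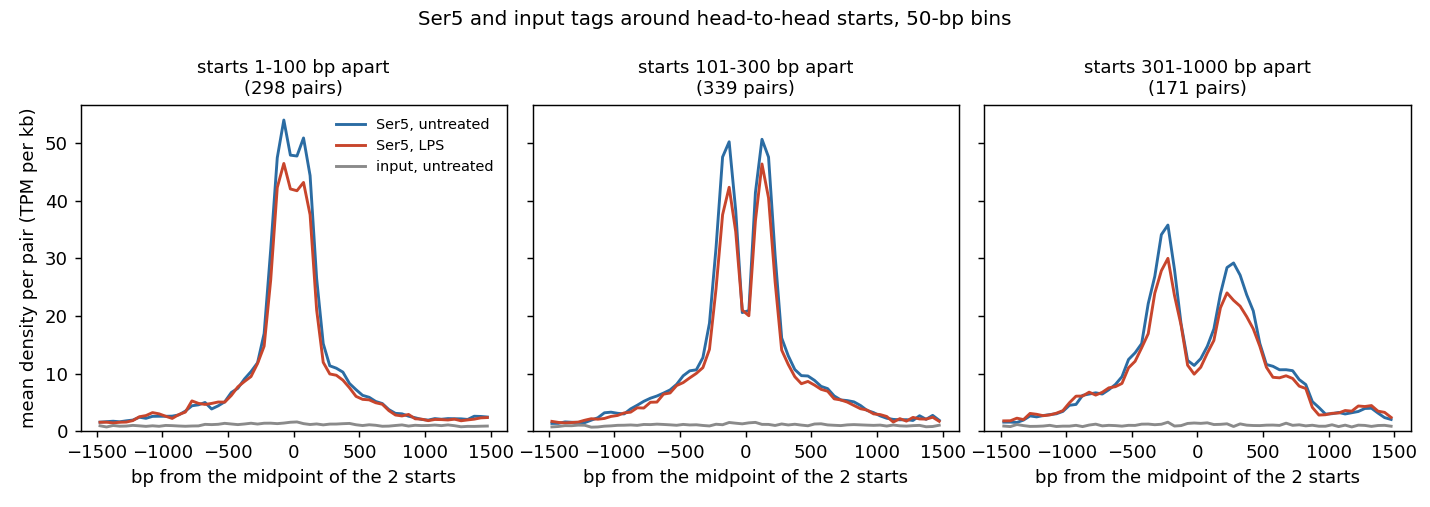
Mean density of untreated Ser5, Ser5 after LPS and input tags (TPM per kb, vertical axis) in bins of 50 bp against the distance in bp from the midpoint of the starts, for pairs with starts up to 100 bp, 100 to 300 bp and 300 to 1000 bp apart. A single broad summit with a shallow notch at the shortest distances separates into a summit on each side of a central dip at the longer ones, and the input is nearly flat.

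When tags were moved 75 bp towards the fragment centre and averaged around the midpoint, the closest pairs had summits at 75 bp on either side, 54.0 and 50.9 TPM per kb, with 47.8 at the centre. The middle class had summits at 125 bp of 50.2 and 50.6, with 20.8 at the centre. In the widest class the summits lay 225 bp to the left and 275 bp to the right, at 35.8 and 29.2, with 12 at the centre. After LPS each of these summits was lower, at 46.4 and 43.2 in the closest pairs and 42.3 and 46.4 in the middle class, whereas the dip of the middle class was 20.5. The input never exceeded 1.61 TPM per kb at its summits. In the closest pairs, tags around the midpoint could therefore not be assigned to either gene.

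The sides of a pair were often unequal. In untreated cells 326 of the 751 pairs with at least 10 tags on their sides differed at least 2-fold (43.4%, 39.9 to 47.0), and after LPS 368 of 737 (49.9%, 46.3 to 53.5). These counts depended on the window. With sides from 200 to 1000 bp they were 455 of 711 in untreated cells and 447 of 690 after LPS, so the higher count after LPS was not seen there. In untreated cells the stronger side had a median of 1.82 times the tags of the weaker (1.74 to 1.90), and in the LPS library 1.99 times (1.87 to 2.15), and 125 untreated pairs differed at least 5-fold. In the input, with few tags per side, 247 of 698 pairs passed the same 2-fold limit. Among pairs with at least 10 tags on their sides, 36.8% (31.4 to 42.5) of those with starts 1 to 100 bp apart were unequal. The share was 42.8% (37.4 to 48.3) in the middle class and 57.9% (49.95 to 65.5) in the widest. The comparison group was 801 divergent neighbours more than 1000 and up to 10000 bp apart, with no other coding gene between them and no member gene. Of these, 576 had at least 10 tags on their sides, and among those the share was 75.3% (71.7 to 78.7).

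**Figure D2:**
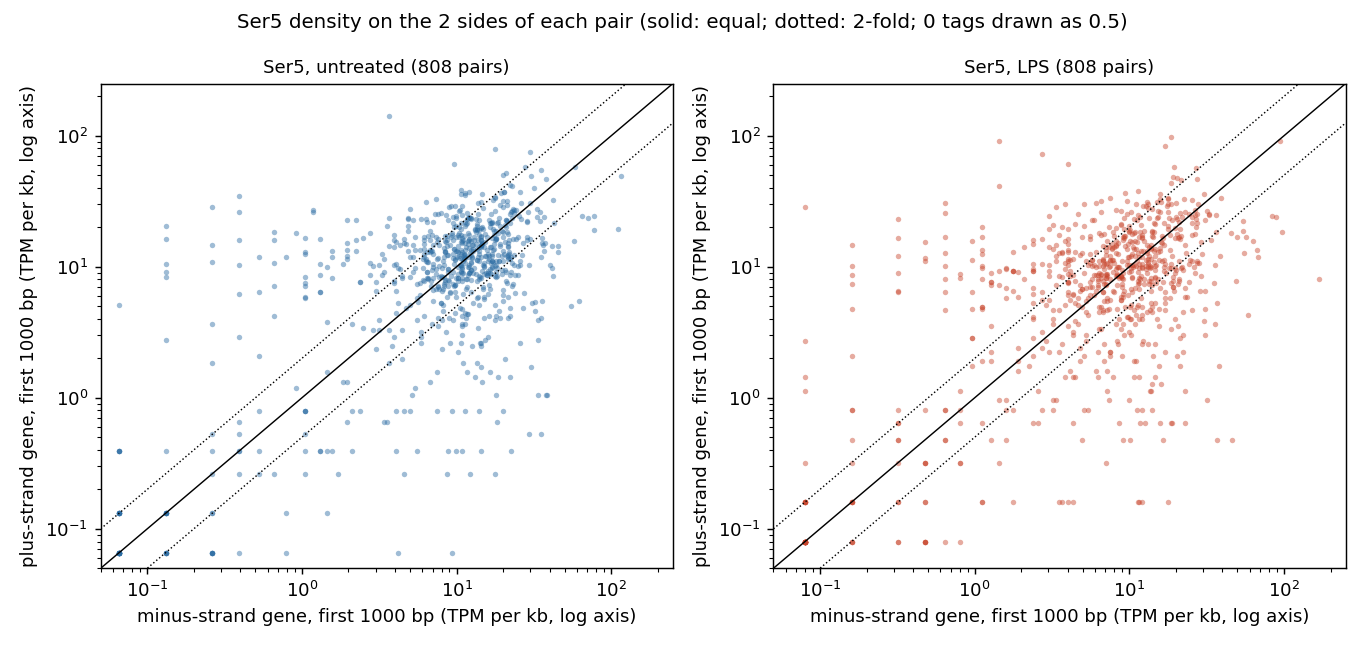
Density over the first 1000 bp of the plus-strand gene against that of the minus-strand gene (TPM per kb, both axes logarithmic) for the 808 pairs, in untreated Ser5 (left) and Ser5 after LPS (right). Most points lie between 1 and 100 TPM per kb in a wide cloud around the line of equality, with arms of pairs in which only one side carries Ser5.

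The identity of the stronger side was stable across the libraries. Of 320 pairs whose untreated sides differed at least 2-fold with an interval of the ratio that excluded 1, the same side was stronger after LPS in 315 (98.4%, 96.4 to 99.3). The order changed, with both intervals clear of 1, in 7 of 409 pairs. At Acad10 / Brap the sides held 132 and 83 untreated tags and 38 and 81 after LPS. Prpf38a / Orc1, an mRNA splicing factor beside the largest subunit of the origin recognition complex, went from 82 and 127 to 68 and 43. Ptcd2 / Mrps27 went from 106 and 65 to 27 and 54, and Vmp1 / Ptrh2 from 73 and 104 to 64 and 42. At Vipar / Ahsa1 the sides went from 100 and 146 to 114 and 84, and at C630004L07Rik / Arhgef19 from 16 and 3 to 0 and 7.

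The densest pairs in untreated cells were led by histone genes. Their sides can run past the gene, as at Hist1h4d (393 bp long) and Hist2h2ac (520 bp long). Hist1h4d, a histone H4 gene, had 1073 untreated tags, 574 after LPS and 14 in the input on its side, while its neighbour Gm17658 had 28, 9 and 16. Hist2h2ac and Hist2h2be, which encode H2A and H2B, had 883 and 374 untreated tags and 421 and 84 after LPS. Their regions had 91.6 and 88.9 TPM per kb in untreated cells, and Hist1h2ak / Hist1h2bn had 52.8. Ddx5, an RNA helicase, had 842 and 605 tags beside 147 and 115 on Ccdc45. Srgap2 and Fam72a had nearly equal sides, 441 and 437 tags untreated and 593 and 570 after LPS, and with 100.7 TPM per kb this region was the densest after LPS. Ppp1r10, which targets protein phosphatase 1 to the nucleus, held 601 and 612 tags beside 134 and 116 on Mrps18b, a mitochondrial ribosomal protein.

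After LPS, few head-to-head genes had much more Ser5 and more of them had less. Of 1437 sides with 10 or more Ser5 tags in all, 42 were at least 2-fold higher (2.92%, 2.17 to 3.93) and 210 at least 2-fold lower (14.6%, 12.9 to 16.5). Over the first 1000 bp of all coding genes, 5.97% were at least 2-fold higher and 16.5% at least 2-fold lower. The median ratio of LPS to untreated was 0.817 (0.795 to 0.838) for the sides and 0.838 (0.830 to 0.847) for all coding starts, which is -0.26 on the log2 scale. Relative to that median, 64 of the 1437 sides were at least 2-fold higher and 130 lower, where 8.62% of all coding starts were higher and 11.3% lower. The count of higher sides moved with the window, to 108 of 1303 when sides were taken from 200 to 1000 bp, where 10.4% of all coding starts were higher, and to 24 of 1260 with at least 50 tags, where 4.43% were. Scaling to tags outside the peaks moved the median of all starts to -0.15. Among starts with a CpG observed over expected of at least 0.6, 1.89% (1.27 to 2.79) of head-to-head sides and 3.92% (3.49 to 4.40) of other starts were at least 2-fold higher. The shares lower, 13.8% and 12.7%, lay close together. Below 0.6 the shares higher in the pairs and at other starts were 7.30% against 7.50% at 0.4 to 0.6, 28.6% of 21 sides against 15.0% at 0.2 to 0.4, and 25% of 8 sides against 21.6% below 0.2.

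Both sides were at least 2-fold higher after LPS in 7 of the 700 pairs with enough tags on each (1.00%, 0.485 to 2.05), against 4 of 339 (1.18%) of the more distant neighbours. With sides from 200 to 1000 bp they were 17 of 588. The highest region ratio was that of 2010002M12Rik and Ifit1, whose product binds viral RNA, at chr19:34714234-34716360. The Ifit1 side held 25 untreated tags, 526 after LPS and 6 in the input, a ratio of 25.6 (17.2 to 40.0). Across the start, 2010002M12Rik went from 22 to 107 tags, a ratio of 5.93 (3.72 to 9.85). In untreated cells these sides were nearly equal, and after LPS Ifit1 had 4.92 times (3.99 to 6.11) the tags of its neighbour. Downstream of the first kb, the Ifit1 body went from 55 to 1286 tags (ratio 28.5, 21.8 to 38.0) and that of 2010002M12Rik from 42 to 97, where the input had 87.

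At chr19:29440881-29442944, Cd274, which encodes the T cell inhibitory ligand PD-L1, went from 30 to 150 tags on its side (ratio 6.09, 4.10 to 9.35) and 5033414D02Rik from 24 to 73 (3.71, 2.31 to 6.15). The bodies differed more than the sides. Beyond the first kb the Cd274 body had a ratio of 7.69 (6.37 to 9.34), with 127 and 801 tags, and that of 5033414D02Rik 1.18 (0.972 to 1.43), with 218 and 211. Lrrc63 / Lcp1, where Lcp1 encodes the leukocyte actin-bundling protein L-plastin, went from 37 to 168 and from 144 to 353 tags, and both bodies were about as much higher, 2.21 (1.49 to 3.30) and 2.23 (2.14 to 2.32), although the Lrrc63 body stayed under the 210 tags of the input with 42 and 76.

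Oas1c / Oas1b, genes of the antiviral 2′-5′ oligoadenylate synthetase family, had 49 and 83 untreated tags and 111 and 208 after LPS (ratios 2.76 and 3.05). Marcks, an actin-binding substrate of protein kinase C, went from 176 to 312 tags beside 5930403N24Rik with 56 and 105. Blvrb, biliverdin reductase B, went from 208 to 452 while its neighbour Spnb4 held 9 and 17, with 9 in the input and an interval of the ratio from 0.971 to 5.86. Nrg4 / AI118078 had only 8 and 6 untreated and 25 and 22 LPS tags.

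H2-T22 / Gm6034, at the major histocompatibility locus, had the second highest region ratio, 4.59 (2.96 to 7.38), from 26 and 98 tags. The difference lay on the Gm6034 side, 9 and 71 tags, whereas H2-T22, a class Ib histocompatibility gene, had 7 and 6. Only 41.9% of the 30-base sequences of the H2-T22 side and 69.1% of the Gm6034 side occur once in the genome, so tags of these genes can be lost.

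**Figure D3:**
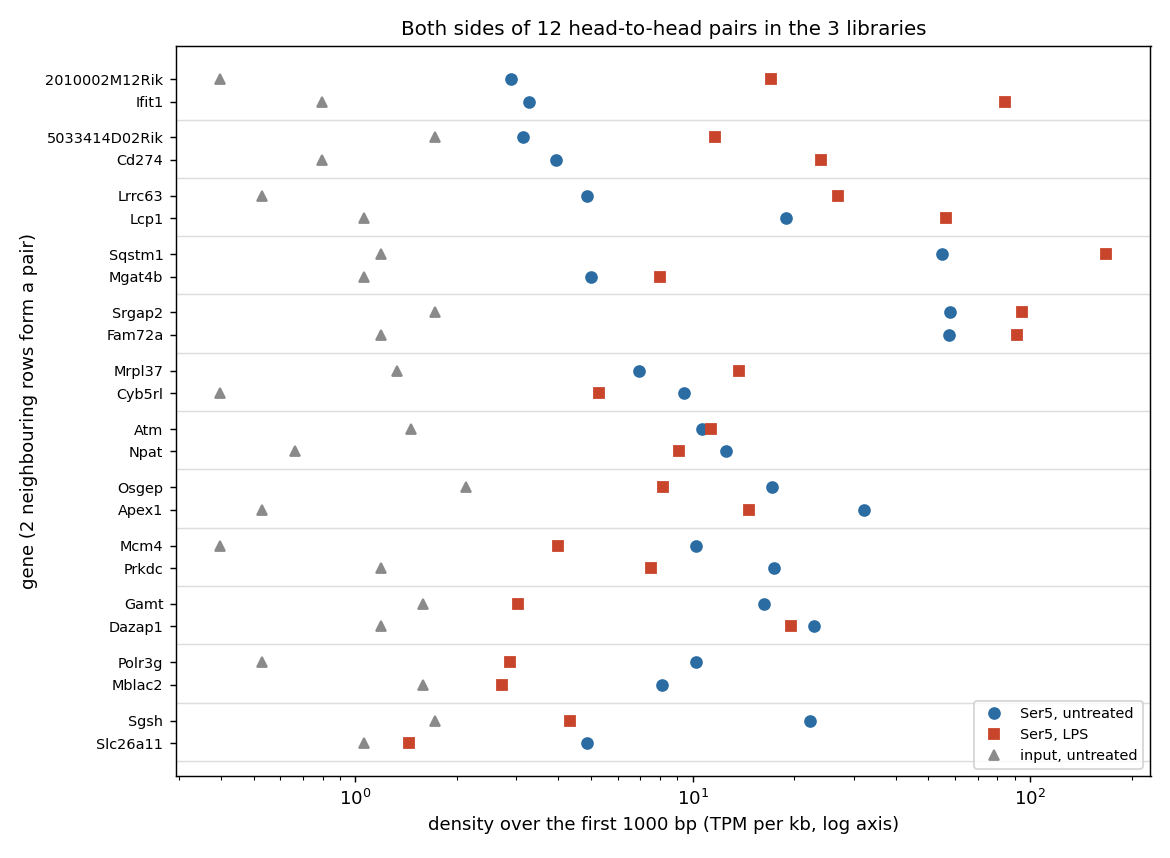
Density over the first 1000 bp (TPM per kb, logarithmic axis) of both genes of 12 named pairs in untreated Ser5 (circles), Ser5 after LPS (squares) and untreated input (triangles), 1 library each. Ifit1, Cd274, Lcp1 and Sqstm1 lie farther right after LPS, as their partners do to differing degrees, and Sgsh, Polr3g, Mcm4 and Apex1 lie farther left together with their partners.

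In 23 pairs one side alone was at least 2-fold higher. Among them Sqstm1 / Mgat4b at chr11:50023330-50025391 had the most LPS tags. Sqstm1, the autophagy receptor p62, held 418 untreated and 1051 LPS tags (ratio 3.06, 2.73 to 3.44), and Mgat4b, an N-glycan branching enzyme, 38 and 50 (1.604, 1.03 to 2.51). Their starts are 63 bp apart, and the Sqstm1 side had 11 times the tags of Mgat4b before and 21.0 times after LPS. The Sqstm1 body went from 731 to 3768 tags, a ratio of 6.28 (5.80 to 6.81), and the Mgat4b body from 846 to 938, a ratio of 1.35 (1.23 to 1.49). Psme2, an interferon-inducible proteasome activator subunit, went from 107 to 243 tags (2.77, 2.20 to 3.51), and Rnf31, the catalytic subunit of the linear ubiquitin ligase, from 173 to 211 (1.49, 1.21 to 1.83).

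Both sides were at least 2-fold lower in 34 pairs (4.86%, 3.50 to 6.71), against 10 of 339 (2.95%, 1.61 to 5.34) of the more distant neighbours, and one side alone in 130. With 1 tag per position they were 22, and with at least 50 tags 21. Among regions with at least 50 tags the lowest ratio was that of Sgsh / Slc26a11 at chr11:119215851-119217870, a lysosomal heparan sulfate sulfatase beside a sulfate transporter. Sgsh went from 170 to 27 tags (0.194, 0.124 to 0.292) and Slc26a11 from 37 to 9 (0.296, 0.126 to 0.625), while the 20 bases between the starts went from 13 tags to 0, which allows up to 3. The Sgsh body had 181 and 14 tags, below the 51 of the input after LPS. Polr3g, a subunit of RNA polymerase III, and Mblac2 went from 78 to 18 and from 62 to 17 tags, and the bases between them from 139 to 31. Of the remaining 3 lowest regions, 4921536K21Rik / Dusp18 went from 80 to 15 tags, 1700026L06Rik / Ak8 from 59 to 11 and Tctn3 / Entpd1 from 50 to 11, where the inputs held 13, 22 and 30. At Tctn3 / Entpd1 it was the side of Tctn3, a ciliary protein, that differed, with 39 and 5 tags, whereas Entpd1, the ectonucleotidase CD39, had 8 and 4.

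Opposite calls were few in these libraries. By the rule of size, 1 of 700 pairs (0.143%, 0.0252 to 0.805) had one side higher and the other lower, C630004L07Rik / Arhgef19, with 16 and 0 tags on one side and 3 and 7 on the other. With sides from 200 to 1000 bp there were 4 of 588, with tags moved by 75 bp or at least 50 tags 0, and among the more distant neighbours 3 of 339 (0.885%). The Arhgef19 ratio has an interval of 0.649 to 17.0 and the side held 16 input tags. The pairs with at least 50 tags per side whose responses differed most were Rnft2 / 2410131K14Rik, Gamt / Dazap1, Gm166 / Rnf40, the Ifit1 pair and Mrpl37 / Cyb5rl. Gamt, an enzyme of creatine synthesis, went from 124 to 19 tags (0.187, 0.109 to 0.304), and the RNA-binding protein gene Dazap1 from 174 to 122 (0.855, 0.672 to 1.08). Rnft2 had 44 and 8 tags beside 57 and 48 on 2410131K14Rik, and Gm166 58 and 8 beside 89 and 56 on Rnf40, an E3 ligase for histone H2B. Only at Mrpl37 / Cyb5rl, among these 5, did the intervals lie on both sides of 1. Mrpl37, of the mitochondrial ribosome, went from 53 to 86 tags (1.98, 1.39 to 2.84) and Cyb5rl from 72 to 33 (0.559, 0.358 to 0.855).

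Across pairs the responses of the sides were more alike than their levels, whereas for the gene bodies described below the levels were more alike than the responses. Over 646 pairs with at least 20 tags per side, the log2 ratios of the sides had a Pearson r of 0.442 and a Spearman rho of 0.339, and the untreated levels 0.232 and 0.226. These are descriptions, since sides share libraries, base composition and, at short distances, ChIP fragments. Of the 38 higher sides with a measured partner, 14 had a partner that was also higher (36.8%), and of 199 lower sides 68 had a lower partner (34.2%). Both sides of a pair enter these counts, so the 14 and 68 sides are 7 and 34 pairs. In the more distant divergent neighbours the same shares were 8 of 36 (22.2%) and 20 of 105 (19.05%), and the Pearson r of the responses over 284 pairs was 0.315. The differences between these shares were not tested. Within the pairs the Spearman rho of the responses was 0.273, 0.378 and 0.380 in the 3 classes of increasing distance (270, 269 and 107 pairs). No intervals were computed for these values, and their differences were not tested.

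**Figure D4:**
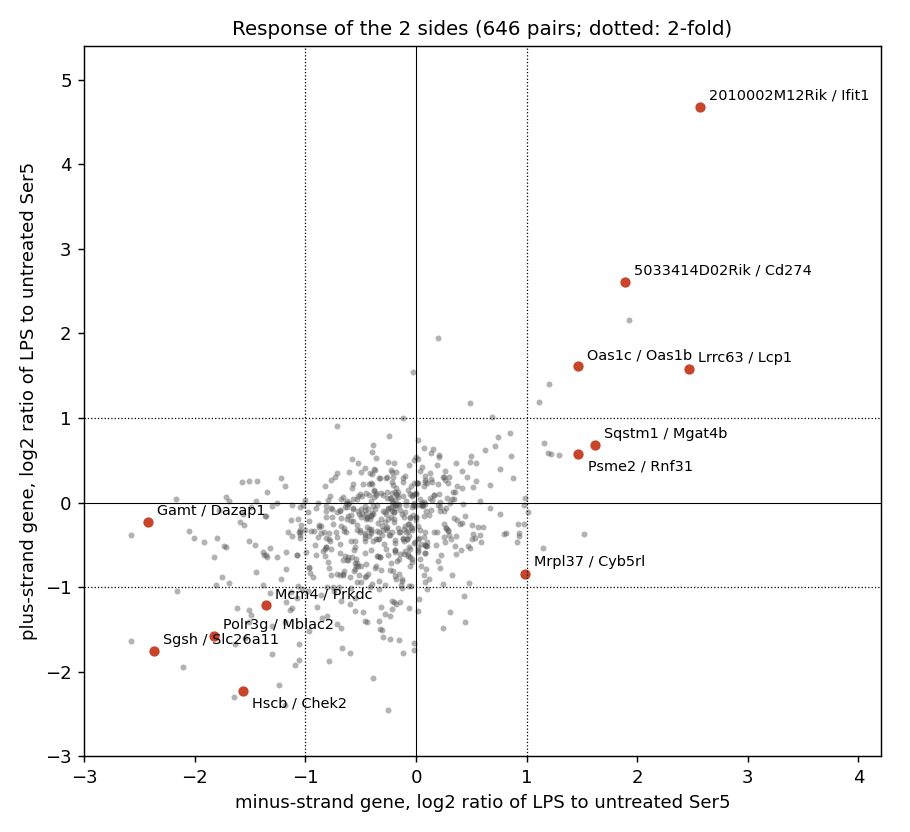
Log2 ratio of LPS to untreated Ser5 of the plus-strand side against that of the minus-strand side for the 646 pairs with at least 20 tags on each side, with dotted lines at 2-fold. Points cluster slightly below 0 on both axes, and the labelled pairs with higher sides lie in the upper right while the upper left and lower right corners beyond the dotted lines are empty.

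Gene bodies beyond the first kb, where tags of the partner's promoter do not reach, gave weaker likeness of response. In 652 pairs with bodies of sufficient length and tags, Pearson r was 0.280 for the ratio and 0.382 for the untreated level, against 0.334 and 0.367 in 485 pairs of the more distant neighbours. Both bodies were at least 2-fold higher at 5 pairs and both lower at 14, and in the 485 more distant pairs at 4 and 14. The 5 were 2010002M12Rik / Ifit1, Lrrc63 / Lcp1, Marcks / 5930403N24Rik, Psme2 / Rnf31 and Cabp4 / Gpr152, the last with bodies of 13 to 45 tags. The input held 23 and 29 tags in the Cabp4 and Gpr152 bodies. The annotated body of Rnf31 overlaps Irf9, an interferon signalling factor. Among the 14 were Mcm4 / Prkdc, Hscb / Chek2 and Dtl / Ints7. Their untreated bodies held 75 and 292, 58 and 138, and 204 and 315 tags. After LPS they held 21 and 107, 15 and 37, and 68 and 105. The input had 60 and 637, 38 and 174, and 230 and 289. Scaled to all tags, these bodies all lay below the input after LPS, and those of Prkdc, Chek2 and Dtl did so before LPS too. A comparison with the input depends on the scaling. Outside the peaks lay 49.9% of the untreated Ser5 tags, 46.35% of the LPS tags and 95.45% of the input tags. One pair, Best1 / Rab3il1, had bodies that differed in opposite directions, 4257 and 7606 tags against 1270 and 142. Of the Best1 tags, 4062 and 7377 lay in the last 2000 bp of the gene, 82 bp from the end of the convergent ferritin gene Fth1. The Rab3il1 side held only 2 untreated and 1 LPS tags, with 11 in the input. Whether its body tags belong to this start was not tested.

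Genes of DNA replication and repair were frequent in head-to-head pairs and mostly lower after LPS. Of 141 such coding genes in the list used, 37 (26.2%) lay in a pair, and 12 of them were at least 2-fold lower and 0 higher, where 16.5% of all coding starts were lower. The median ratio over the 37 was 0.588, against 0.838 over all coding starts, and 31 of the 37 lay below that overall median. Ratios were below 1 for 34, and the interval lay below 1 for 21. Lowest was Chek2, a DNA damage checkpoint kinase, with 57 and 10 tags (0.214, 0.0973 to 0.422), whose partner Hscb, an iron-sulphur cluster cochaperone, went from 162 to 45. Rpa3 and Rpa1, of the single-strand DNA binding complex, had 96 and 19 and 67 and 22 tags, Lig4, the ligase of end joining, 49 and 10, and Xrcc3, a recombination factor, 66 and 19. Mcm4, of the replicative helicase, and Prkdc, the DNA-dependent protein kinase, share one promoter region and went from 78 to 25 and from 133 to 47 tags. At Osgep / Apex1, the base excision endonuclease Apex1 went from 245 to 92 and Osgep, a tRNA-modifying enzyme, from 131 to 51. For 4 of the 12 lower genes (Apex1, Chek2, Mcm4 and Prkdc) the partner was lower too, a share close to the 34.2% over all lower sides with a measured partner. Against the list's direction, Wrn, a RecQ helicase, had 71 and 85 tags (1.46, 1.05 to 2.03), and Top3a, a topoisomerase, 327 and 340 (1.27, 1.09 to 1.48). Over all list genes with enough tags, in pairs or not, the median was 0.646.

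Replication-dependent histone genes had the lowest median ratio of the 13 lists. Of 68 coding histone genes 27 (39.7%) lay in pairs, 13 of the pairs joined histone genes only, and 21 genes had enough tags. All 21 ratios and their intervals lay below 1, between 0.224 and 0.820, with a median of 0.543, and 7 genes were at least 2-fold lower. Over all coding starts the median was 0.838 and 16.5% were at least 2-fold lower. Hist1h2bl went from 158 to 29 tags (0.224, 0.145 to 0.334) and its partner Hist1h2ai from 397 to 158 (0.485, 0.401 to 0.585). Hist1h2bc had the highest ratio, 0.820 (0.705 to 0.952), from 440 and 296 tags. Between 43.2% and 90.6% of the 30-base sequences of these sides are unique, so histone values are uncertain. The LPS tags were shorter than the untreated tags, 30 against 45 bases, so a loss of tags in repeats can fall more on the LPS library and lower these ratios, and its part in the result was not tested. At the sides of Hist1h2ap / Hist1h2br and Hist1h2bq / Hist1h2ao, none of it is unique and no tag was found.

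Interferon and inflammatory response genes were rarely in pairs that met the rule. Other genes of the list, such as Tap1 / Psmb9 and Parp9 / Dtx3l, overlap at their 5′ ends and so fall outside it. List genes in such overlapping pairs were not counted. Of the 134 genes of the list, which holds neither Cd274 nor the Oas1 genes of the pair above, 3 (2.24%) were, Ifit1, Psme2 and Rnf31, against 7.15% of all coding genes, and all had ratios above 1 with intervals clear of it. The proteasome list had 7 members in pairs, of which Psme2 and Psmd10, an assembly chaperone of the 19S particle, were at least 2-fold higher. Psmd10 went from 45 to 106 tags (2.87, 2.01 to 4.16) and its partner Atg4a, an autophagy protease, from 22 to 14 (0.776, 0.367 to 1.59). Psmc2 was at least 2-fold lower with 22 and 8 tags, an interval of 0.171 to 1.03. For all coding starts the shares were 5.97% at least 2-fold higher and 16.5% at least 2-fold lower.

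**Figure D5:**
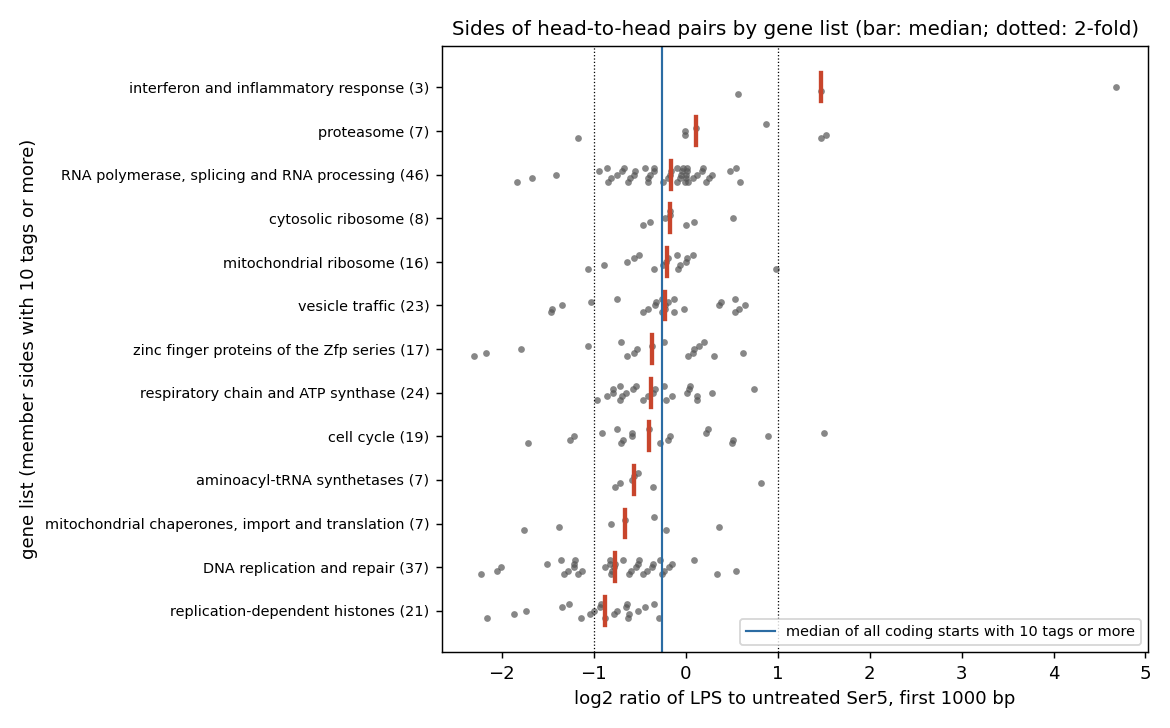
Log2 ratio of LPS to untreated Ser5 over the first 1000 bp of each member side with at least 10 tags (points), with the median of each of the 13 gene lists (bars), the median of all coding starts (line) and 2-fold (dotted). Histone and DNA replication and repair genes lie lowest, the 3 interferon and inflammatory genes highest, and ribosomal, splicing and vesicle traffic genes close to the median of all starts.

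Few genes of energy metabolism and protein synthesis passed the 2-fold rule. Of 100 respiratory chain and ATP synthase genes 24 lay in pairs, with 0 at least 2-fold higher or lower and a median ratio of 0.770. Among them Ndufa2, a complex I subunit, had 103 and 141 tags (1.67, 1.29 to 2.17), and Ndufaf2 had the lowest ratio, 69 and 29 tags (0.512, 0.320 to 0.801). Mitochondrial ribosomal genes numbered 16 of 76, with 1 lower (Mrpl41) and a median of 0.870, and the cytosolic ribosome 8 of 80, with 0 called and a median of 0.891. Aminoacyl-tRNA synthetases (7 of 38, median 0.677) likewise had 0 called. The list of mitochondrial chaperones, import and translation (7 of 42, median 0.634) had 2 lower, Tfb2m and Timm9. RNA polymerase and splicing genes were a large group, 47 of 190 (24.7%), with a median of 0.894 and 3 of 46 lower, Ints7, Polr1a and Polr3g. Vesicle traffic had 24 of 230 in pairs with 4 lower (Sec24a, Trappc1, Vps26b and Vps53) and a median of 0.853. Zinc finger genes of the Zfp series had 19 of 371 with 4 lower (Zfp142, Zfp661, Zfp942 and Zfp943, the last pair head to head) and a median of 0.776. The cell cycle list, filled mostly from symbol families such as Cdc, Ccn and Kif, had 19 of 152 in pairs with a median of 0.760. Of these Ccnt1, Cenpp and Kif24 were lower and Kif9 higher, from 3 and 7 tags with 7 in the input. Membership by symbol does not establish a role in the cell cycle. For comparison, 16.5% of all coding starts were at least 2-fold lower and 5.97% higher, with a median of 0.838. The shares of lower genes in the vesicle traffic list (4 of 23 tested) and the cell cycle list (3 of 19) were close to that background.

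Starts of the pairs differed in sequence from those of other coding genes. A CpG-rich region (GC over 50% and CpG observed over expected over 0.6), over the 1000 bases around the midpoint or the start, was found at 83.4% of the pairs (80.7 to 85.8) and 41.3% of other coding starts (40.6 to 41.9). In the 300 bases from 250 before to 50 after the start, ETS letters occurred in 27.8% (25.7 to 30.1) of the genes of the pairs and 9.46% (9.06 to 9.86) of other genes. The NRF1 letters were in 4.94% against 1.88%, YY1 in 5.38% against 1.56%, SP in 68.4% against 41.5%, and NF-Y in 42.8% against 37.5%. Over all coding starts the shares were 10.8% for ETS, 2.10% for NRF1, 1.83% for YY1, 43.5% for SP and 37.9% for NF-Y. TATA letters were rarer in the pairs, 4.44% against 14.1% (13.4% of all), as were ISRE letters, 2.44% against 3.89% (3.79% of all), and kappa B letters were found at 1.501% against 1.45% (1.45% of all). Windows of the 2 genes of a close pair overlap, so a match can count for both.

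Of 11 widely cited head-to-head pairs, 4 met the rule and the other 7, such as Hspd1 / Hspe1 and Parp9 / Dtx3l, overlap at their 5′ ends in this annotation. Atm / Npat, a DNA damage kinase beside a coactivator of histone genes, held 81 and 96 untreated tags on its sides and 71 and 57 after LPS, and the region ratio was 0.986 (0.806 to 1.204). Mrps12 / Sars2, both of mitochondrial translation, had 115 and 45 tags and 64 and 25 after LPS, ratios of 0.678 and 0.677. Osgep / Apex1 and Mcm4 / Prkdc, with region ratios of 0.501 (0.419 to 0.597) and 0.468 (0.373 to 0.583), are described above. The pairs nearest the limit inside it were Pdzd7 / Sfxn3 and Btf3l4 / Txndc12 at 987 bp, with 211 and 327 untreated tags in their regions. Just outside it lay Nacc1 / Trmt1 at 1004 bp with 192 tags, Serpina7 / 4930513O06Rik at 1007 bp with 2 and Atg14 / Gm6616 at 1008 bp with 73.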

How the data were processed

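The authors trimmed the Ser5 reads and mapped them to mm9 with Bowtie, where a tag had to match 1 place with no more than 2 mismatches, and called peaks with MACS per library against input at a p-value threshold of 1e-05. Tool versions and the settings for the input library are not given in the sources used here. The deposited tag files give the first and last position and the strand of each tag, duplicates included, and the deposited peak lists a score of minus 10 times log10 p, used only for a stricter set (score of at least 100). Libraries were taken from the labels.

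Each tag was assigned to its 5′ end, and counts were scaled to the library's tags on chromosomes 1 to 19 and X, with exact Poisson-based conditional intervals for ratios, Wilson intervals for shares, and intervals for medians from order statistics. These treat tags, or pairs, as independent. A side was called at a ratio of at least 2 or at most 0.5 and 10 or more Ser5 tags in all, 0 tags set to 0.5. A peak counted when it overlapped a region by 1 bp. Gene bodies of pairs used both genes of at least 2000 bp. Genes and pairs came from GENCODE M1 and sequence from NCBIM37 (mm9); tag positions may be off by 1 bp. Shorter tags are more often lost in repeats.

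Named pairs are those with at least 50 tags in the region with the 5 highest and 5 lowest ratios, the 5 most different sides (50 tags each), the 5 densest per Ser5 library, the 3 nearest the limit on each side, and 11 cited pairs; others were chosen after their values were seen, and 2 pairs are not reported here. The members, lists and rules were chosen with earlier results of these data known. Alternatives were other scalings, 1 tag per position, moved tags, narrower sides, tag minima, coding transcript starts, uniqueness, simple pairs and a stricter peak set. Python 3.11.15, numpy 2.4.6, pandas 2.3.3 and scipy 1.17.1 were used, and the functions were tested on simulated data.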

Additional observations from a re-analysis of the deposited data

How the results depend on the processing

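Each condition has 1 library, so no replicate could be left out, and differences between the cultures, the immunoprecipitations and the conditions cannot be told apart. No paired analysis was possible because each condition has a single library. Of the recomputed values, 112 stayed within the limits set for them, 0 changed direction and 36 moved. Where a value moved, the cause was not tested unless the alternative itself gives it.

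Sides taken from 200 to 1000 bp gave 108 higher sides, 17 pairs with both sides higher, 4 opposite pairs, a side median of 0.880 and a Pearson r of the responses of 0.375. Over all coding starts the same window had 10.4% higher and 17.4% lower. With at least 50 tags there were 24 higher sides, 21 pairs with both sides lower and 0 opposite pairs, and moving tags by 75 bp also left 0 opposite pairs. With 1 tag per position and strand, 22 pairs had both sides lower, and the region and side medians were 0.877 and 0.859. Scaled to the tags outside the peaks the medians were 0.901 and 0.879. Relative to the median of coding starts, 64 sides were higher and 130 lower, where 8.62% of all coding starts were higher and 11.3% lower.

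Ser5 over input in the regions, 12.03 untreated and 10.6 after LPS, was 23.0 and 21.9 when scaled outside the peaks, 10.8 and 9.89 with 1 tag per position, 11.5 and 10.4 with sides at least 90% unique, and 11.8 untreated for genes in 1 pair and at least 1000 bp long. Between the starts, 19.2 and 17.7 became 36.7 and 36.4, 16.7 and 16.1, and 17.5 and 15.7 with tags moved by 75 bp, and untreated values were 17.9 with unique sides and 18.2 for genes in 1 pair. Gene bodies gave a Spearman rho of 0.357 for level and 0.259 for response and a Pearson r of 0.382 and 0.280, and with at least 100 tags per side the Pearson r of the level was 0.311. Sides with under 10 tags, and repeats such as the histone clusters, limit what these depths can show.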
